A study of Mus musculus with 6 samples.

Results

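The 9 genes at the core of insulin receptor signalling were followed in the liver of mice that lack chromogranin A (Chga KO) and of wild-type mice (WT). They were the receptor gene Insr, the receptor substrate genes Irs1 and Irs2, the phosphoinositide 3-kinase subunit genes Pik3r1 and Pik3ca, and the kinase genes Pdpk1, Akt1, Akt2 and Gsk3b. A member is a probe set, the group of short probes that measures a transcript on an Affymetrix array, that the platform annotation gives to 1 of these symbols alone, whatever its brightness. This rule gave 16 member probe sets among the 22626 of the table that are not controls. Irs1, Irs2 and Gsk3b had 1 probe set each, Pik3r1 had 3, and the other 5 genes had 2 each. The study placed liver RNA of 3 Chga KO and 3 WT mice on 1 array each, and all 6 mice were males aged 12 weeks. The knockout is the line of Mahapatra et al., which lacks the gene in all tissues, so effects that begin within the liver and outside it cannot be told apart. The genetic background of the WT mice is not in the labels, and neither is the feeding state, on which insulin and its targets depend. Values are signal intensities in arbitrary units on arrays that had been scaled to a common level, and p-values measure the spread between these samples.

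Insulin binds a receptor tyrosine kinase, encoded by Insr, which phosphorylates the docking proteins IRS1 and IRS2. These recruit the phosphoinositide 3-kinase, made of a regulatory subunit (Pik3r1) and a catalytic subunit (Pik3ca), whose lipid product brings the kinases PDPK1 and AKT to the membrane. PDPK1 phosphorylates AKT, and AKT in turn inhibits GSK3B, a kinase that holds glycogen synthase inactive, and keeps the transcription factor FOXO1 out of the nucleus. In liver the pathway favours glycogen and fat synthesis and restrains glucose output. It works mostly through phosphorylation, which transcript levels do not show.

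Among the members, Irs2 is the one best known as a target of the pathway itself: in mouse liver FOXO1 raises and insulin lowers its transcription, as with Igfbp1, which encodes an insulin-like growth factor binding protein. RefSeq promoter windows of assembly GRCm38.p6 were given for 8 of the 9 genes, 14 windows in all. They were searched on both strands for TGTTTTG and TATTTTG, forms of the core of the insulin response element, for the FoxO core TGTTTAC, and for the E-box CACGTG, which reads the same on both strands. The core TGTTTTG stood in the windows of Irs1 and Irs2 alone among the members, where each also held an E-box upstream of it. Of all 32851 promoter windows of the same length, 6.28% held TGTTTTG, 4.36% TATTTTG, 3.65% TGTTTAC and 7.15% the E-box. TATTTTG occurred in 1 window of Pik3r1 and TGTTTAC in 1 window of Akt1. The stretches that hold these letters in Irs1 and Irs2 are shown beside that of Igfbp1, a gene taken for comparison after its values were seen, with all searched motifs in capitals. The Irs1 stretch is chr1:82291460-82291559 on the minus strand, from 120 to 21 bases before the transcription start. In it the E-box and the first TGTTTTG overlap by their last and first letters. The Irs2 stretch is chr8:11008940-11008989 on the minus strand, from 60 to 11 bases before the start, and the Igfbp1 stretch is chr11:7197667-7197716 on the plus strand, from 120 to 71 bases before it. In the Igfbp1 stretch the first run of capitals is TGTTTTG read on the opposite strand and the second is TATTTTG. These matches describe letters and were not tested for binding.
Irs1: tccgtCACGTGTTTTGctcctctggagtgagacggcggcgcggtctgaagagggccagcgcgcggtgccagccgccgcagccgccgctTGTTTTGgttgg
Irs2: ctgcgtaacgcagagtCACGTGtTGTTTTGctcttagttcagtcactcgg
Igfbp1: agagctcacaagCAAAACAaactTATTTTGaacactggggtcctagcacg

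A probe set was called above background on an array where it exceeded the 95th percentile of 27 dim control probe sets for Bacillus subtilis transcripts. That reference was 179, 322 and 174 units on the KO arrays and 230, 151 and 168 units on the WT arrays, highest on KO replicate 2. All 18 hepatocyte marker probe sets were above it on all 6 arrays, and their summed signal ran from 2123000 to 2466000 units in KO and from 1958000 to 2206000 units in WT. The deleted gene, Chga, read 61.5, 44.5 and 231 units in KO and 167, 185 and 42.5 units in WT, above the reference on 1 array of each group, so it does not check the genotype labels. Over all probe sets, 42 of 22626 passed an adjusted p of 0.05, or 0.186%, with 17 higher and 25 lower in KO (limma, Benjamini-Hochberg over all of them). The count was 14 without WT replicate 1, 15 without WT replicate 3 and 23 without KO replicate 2, and limma without the intensity trend gave 0, with 1507 at an unadjusted p under 0.05. Probe set levels are not compared between genes, because probes differ in how strongly they bind.

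None of the 16 member probe sets passed the threshold (limma), and the adjusted p-values ran from 0.725 to 0.993. At an unadjusted p under 0.05 the count was also 0 of 16, where 7.94% of all probe sets stood. Of the 16 estimates, 6 were above 0 and 10 below, with a median log2 change (KO minus WT) of -0.12, beside -0.0031 over all probe sets. In 1 of 16 the KO and WT values did not overlap, beside 13.4% of all probe sets. The 12 member probe sets that were above background on all 6 arrays had estimates from -0.34 to 0.28, and their median absolute log2 change was 0.14, against 0.16 for the 12956 such probe sets of the table. The 95% intervals of all 12 lay within 2-fold in either direction, and those of 7 within 1.5-fold. Changes inside these intervals could not be told from none with 3 arrays a group. Less RNA per cell and fewer cells of a type cannot be told apart in whole liver.

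**Figure D1:**
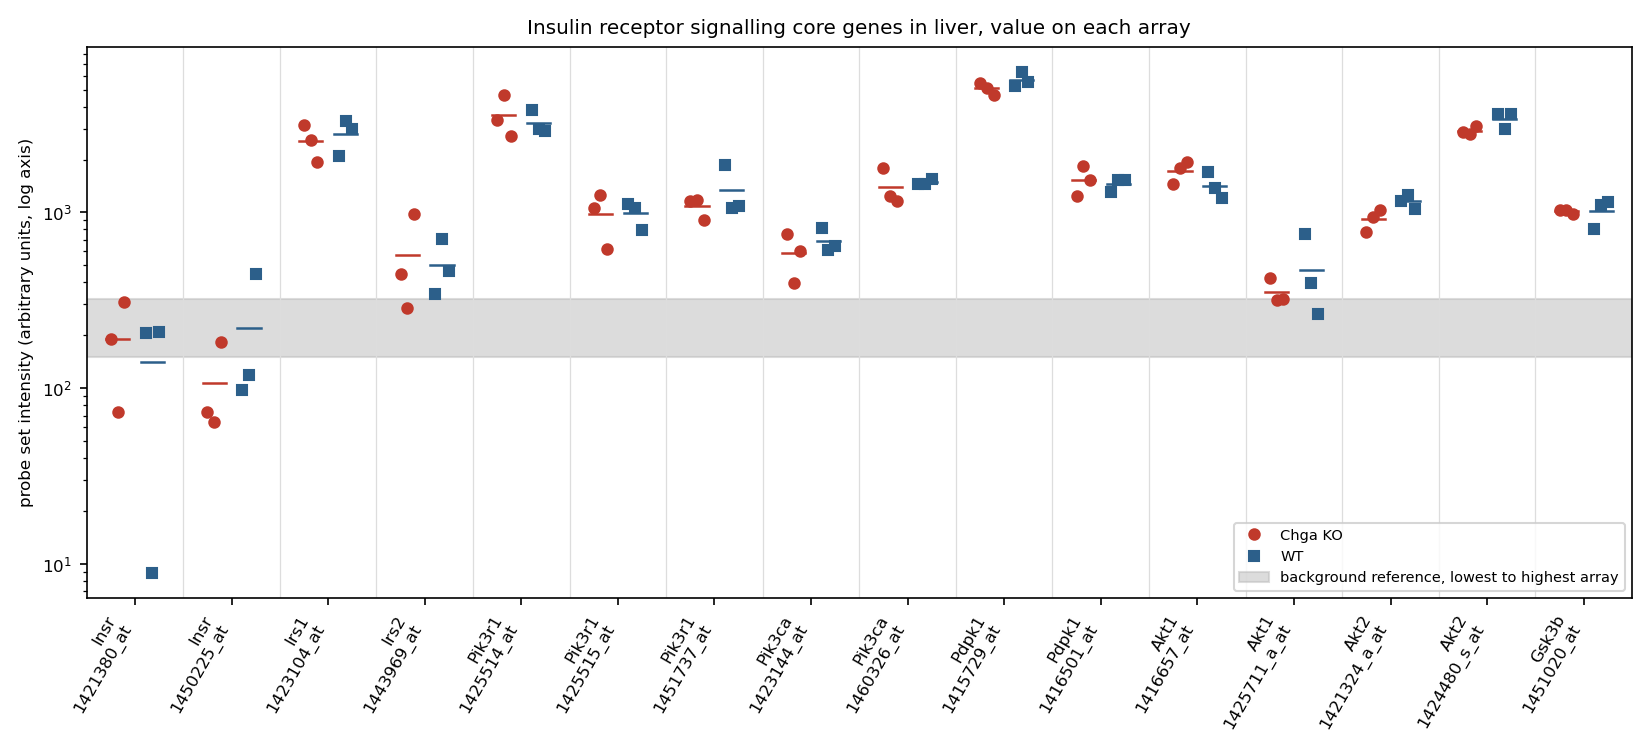
Intensity of the 16 member probe sets on each array (log axis, arbitrary units), with Chga KO as red circles and WT as blue squares, short lines at the means of 3 arrays, and a grey band from the lowest to the highest background reference of the 6 arrays. Apart from 1 WT value at 447 units, both Insr probe sets scatter in and below the band, while the circles of Akt2 lie mostly below its squares.

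The receptor gene Insr was above background on 3 of the 6 arrays by 1 probe set and on 2 of them by the other. Its probe set 1421380_at read 191, 72.9 and 310.1 units in KO and 206, 8.89 and 208 units in WT, and was above background on 2 KO arrays and 1 WT array. The second, 1450225_at, read 73.0, 63.9 and 183 units in KO and 97.3, 119 and 447 units in WT, above background on 1 array of each group. The groups overlapped in both, and the highest WT value of 1421380_at was 23.4 times the lowest. The estimates pointed in opposite directions, at 0.76 for 1421380_at (95% interval from -1.25 to 2.77) and -0.78 for 1450225_at (from -2.35 to 0.79). Both probe sets were designed from the same transcript record, and neither measured the receptor transcript well enough to compare the groups.

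Irs1 encodes the first receptor substrate to be described, and it was well above background. Its probe set 1423104_at read 3149, 2598 and 1945 units in KO and 2083, 3292 and 2972 units in WT, so the groups covered nearly the same range. The log2 change was -0.12 ± 0.21 (SE, n = 3 a group), with an interval from 0.668- to 1.27-fold. The sign of this estimate turned without KO replicate 3 (0.066) and without WT replicate 2 (0.016).

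Irs2, the other substrate gene, varied most among the members above background on at least 5 arrays. Its probe set 1443969_at read 449, 287 and 982 units in KO and 342, 705 and 462 units in WT. KO replicate 2 was its lowest array, below background there, and KO replicate 3 its highest, a 3.42-fold span within KO against 2.06-fold within WT. The estimate of 0.062 had an interval from 0.500- to 2.18-fold, so changes inside that range could not be told from none. Without KO replicate 3 the estimate was -0.41. The same array had the lowest Irs1 value of the 6.

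Igfbp1, which shares the insulin response letters, read 2468, 2500 and 5389 units in KO and 9079, 25499 and 4010 units in WT. The groups overlapped through KO replicate 3 and WT replicate 3, and the log2 change of -1.60 ± 0.54 (SE) had an adjusted p of 0.443 in limma. In KO, replicate 3 was the highest array for Irs2 and for Igfbp1 alike, while in WT replicate 2 was. The lowest arrays differed, with KO replicate 2 and WT replicate 1 for Irs2 and KO replicate 1 and WT replicate 3 for Igfbp1. A link between these genes was not tested.

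Pik3r1 encodes the regulatory p85-alpha subunit and its shorter forms, and its 3 probe sets come from the same source record. Probe set 1425514_at read 3359, 4654 and 2728 units in KO and 3836, 2982 and 2920 units in WT. The second, 1425515_at, read 1059, 1262 and 620.0 units in KO and 1119, 1065 and 796 units in WT. The third, 1451737_at, read 1166, 1182 and 902 units in KO and 1865, 1062 and 1089 units in WT. The groups overlapped in all 3, KO replicate 3 was the lowest array each time, and the highest was KO replicate 2 for the first pair and WT replicate 1 for the third. Their log2 changes were 0.12 ± 0.19, -0.06 ± 0.29 and -0.26 ± 0.25 (SE). Signs differed between the probe sets, and each turned when 1 array was left out.

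Pik3ca encodes the catalytic p110-alpha subunit. Its probe set 1460326_at read 1780.45, 1239 and 1155 units in KO and 1446, 1449 and 1547 units in WT. The WT values were close together, spanning 1.07-fold, and the KO values, spanning 1.54-fold, lay on both sides of them. Its other probe set, 1423144_at, read 752, 398 and 607 units in KO and 819.7, 608 and 641 units in WT. Both estimates were below 0, at -0.11 ± 0.20 and -0.26 ± 0.33 (SE), with intervals that reach down to 0.681-fold and 0.505-fold. The first was 0.0052 without KO replicate 3.

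Pdpk1, the kinase that activates AKT, had the steadiest reading among the members, with a residual SD of 0.12 on the log2 scale. Its probe set 1415729_at read 5444, 5112 and 4659.7 units in KO and 5229, 6285 and 5537 units in WT. The groups overlapped through KO replicate 1 and WT replicate 1, and the log2 change of -0.16 ± 0.11 (SE) had an interval from 0.753- to 1.06-fold. The other, 1416501_at, read 1245, 1842 and 1523 units in KO and 1303, 1524 and 1521 units in WT. Its estimate was 0.069 ± 0.19, so the pair did not point the same way.

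The AKT genes encode closely related kinases, of which AKT2 is the form most tied to glucose control and, in mouse liver, to insulin-driven fat synthesis. Akt2 had the lowest p-values of the 16. Its probe set 1421324_a_at read 775, 938 and 1038 units in KO and 1162, 1259 and 1052 units in WT. Every KO value was below every WT value, though KO replicate 3 and WT replicate 3 were nearly equal. Its other probe set, 1424480_s_at, read 2857.5, 2775 and 3109 units in KO and 3642, 2964 and 3609 units in WT. Here the groups overlapped through WT replicate 2, which was below KO replicate 3.

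Neither Akt2 probe set passed the threshold. By limma, the log2 change was -0.34 ± 0.21 for 1421324_a_at (SE, adjusted p = 0.749) and -0.22 ± 0.13 for 1424480_s_at (SE, adjusted p = 0.725). In fold terms the intervals ran from 0.571 to 1.10 and from 0.707 to 1.05. Both estimates stayed below 0 under all 16 other settings of the fit. Without WT replicate 2, 1424480_s_at reached an unadjusted p of 0.0416 (adjusted p = 0.781), the sole member value under 0.05 in any setting. By the suffix of their names, 1421324_a_at may read several transcripts of Akt2, and 1424480_s_at may also read transcripts of another gene, although the annotation gives Akt2 alone.

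Akt1 gave opposite readings from its probe sets. 1416657_at read 1449, 1785 and 1943 units in KO and 1691, 1369.96 and 1203 units in WT, an estimate of 0.28, the highest among the members above background on all arrays. Its groups overlapped through KO replicate 1 and WT replicate 1. The second, 1425711_a_at, read 423, 318 and 321 units in KO and 754, 399 and 264 units in WT, and was just below background on KO replicate 2. Its estimate of -0.29 rested on WT replicate 1, and it was 0.11 without that array. The mean of both probe sets put the gene at -0.0024. Of the 6 genes with several probe sets, Akt2 and Pik3ca were the ones in which all agreed in sign.

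Gsk3b, the kinase that AKT inhibits, had nearly equal means in the groups. Its probe set 1451020_at read 1029, 1032 and 985 units in KO and 809.96, 1099.95 and 1139 units in WT, with means of 1015 ± 26.1 and 1016 ± 179.8 units (SD, n = 3 each). The KO values lay together inside the WT range. The log2 change was 0.014 ± 0.22 (SE), and the interval ran from 0.722- to 1.41-fold.

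**Figure D2:**
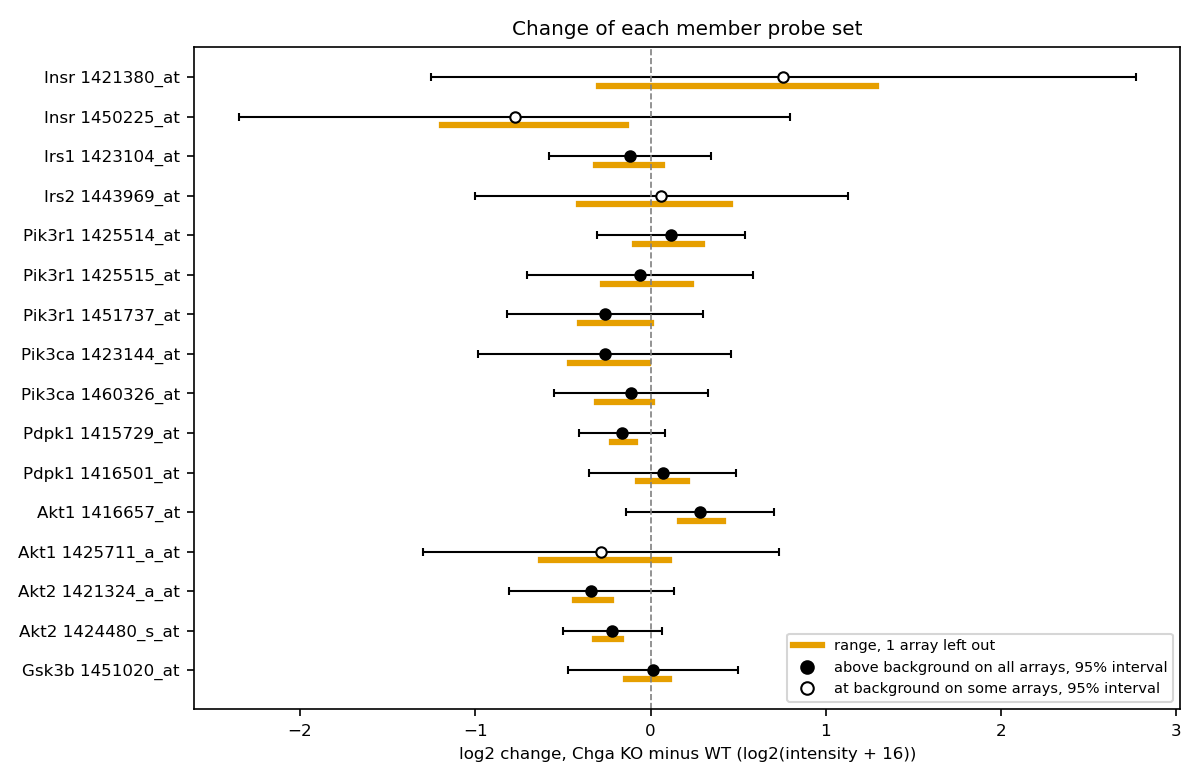
Log2 change (KO minus WT) of each member probe set with its 95% interval, filled where the probe set was above background on all 6 arrays and open elsewhere, and in orange the range of the estimate with 1 array left out. All intervals cross 0, and the filled ones lie between -0.99 and 0.70.

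The probe set with the lowest p among the members above background, Akt2 1424480_s_at, was used to look for transcripts of like pattern over the 6 arrays. Among 11891 bright probe sets of 1 gene, those with the highest Pearson correlation of log2 values were of Arf3, a small GTPase gene (r = 0.983), Crtap, a collagen-modifying protein gene (r = 0.979), and Plin2, which encodes a lipid droplet coat protein (r = 0.974). This Akt2 probe set, Arf3, Crtap and Plin2 were all lower on WT replicate 2 than on the other WT arrays. The other Akt2 probe set, 1421324_a_at, had its highest value of the 6 arrays on WT replicate 2. With 6 arrays and so many candidates, values this high describe the arrays and no more. Plin2 read 19969, 20033 and 24519 units in KO and 29799, 20811 and 27642 units in WT, overlapping between the groups.

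**Figure D3:**
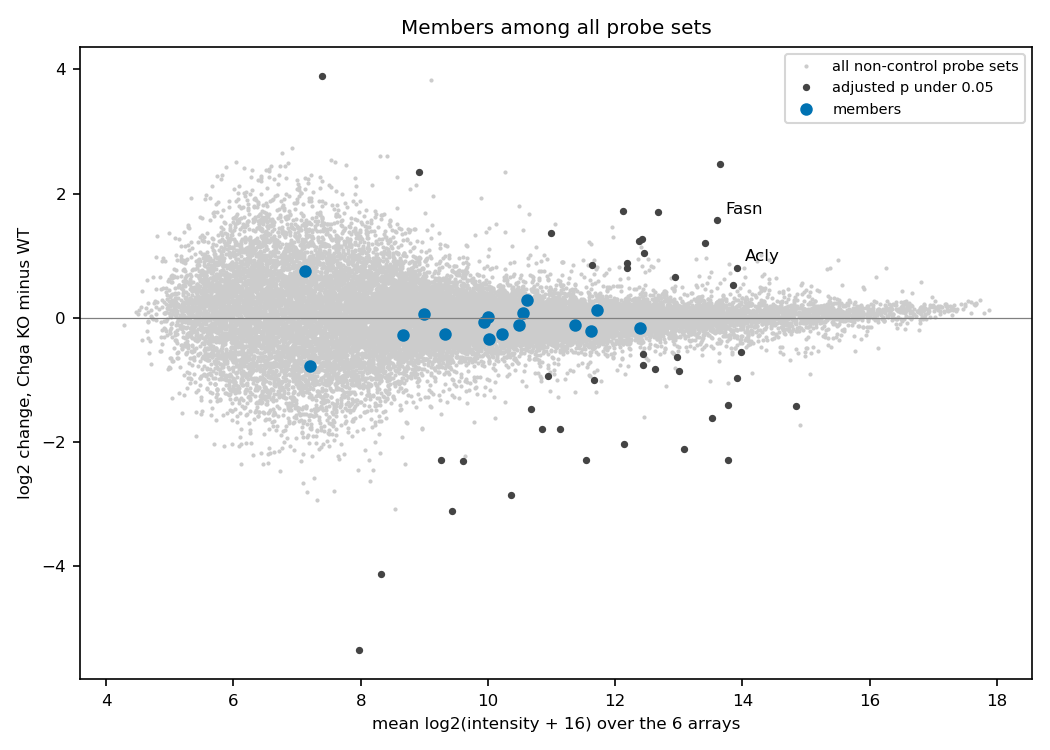
Log2 change (KO minus WT) against mean log2 intensity for all 22626 probe sets (grey), with those at an adjusted p under 0.05 in dark grey and the 16 members in blue. The members above background sit close to 0 at middle and high intensity, away from Fasn and Acly.

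The rest of the pathway was read from 5 lists of genes by role, 95 probe sets of 44 genes, of the 60 genes listed. None of the 95 passed the adjusted threshold (limma). At an unadjusted p under 0.05 there were 7 of 95, 2 higher and 5 lower in KO, beside 7.94% over all probe sets, and the median log2 change was -0.0034. In 11 of 95 the groups did not overlap, beside 13.4% over all.

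Among the receptor and adaptor partners (19 probe sets of 10 genes, median -0.18), the lowest p-values belonged to Cbl and Gab1. Cbl, a ubiquitin ligase, was not above background on any KO array by probe set 1450457_at, with 70.2, 51.8 and 158 units, against 304, 327 and 271 units in WT (adjusted p = 0.473 in limma). It met the brightness needed to be named through its WT arrays alone, so the direction of this difference follows in part from that choice and nothing is read from it. Its other probe set, 1455886_at, was at 0.36 with overlapping groups. Gab1, a docking protein gene, read 1961, 2821 and 2538 units in KO and 2993, 3022 and 3682 units in WT by 1417693_a_at, without overlap (adjusted p = 0.556). Its other 2 probe sets were at -0.17 and -0.14, both with overlap.

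The isoforms beside the members (9 probe sets of 5 genes, median 0.18) were led by Gsk3a, the sister kinase of Gsk3b. It read 5510, 4519 and 6547 units in KO and 4766, 3331 and 4821 units in WT, a log2 change of 0.36 ± 0.17 (SE, adjusted p = 0.653 in limma), with overlap. Pik3r2, a further regulatory subunit, was at 0.18 (95% interval from -0.22 to 0.58, adjusted p = 0.848).

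Of the brakes on the pathway (34 probe sets of 13 genes, median 0.040), Ptprf came nearest to the threshold. It encodes a receptor tyrosine phosphatase that can dephosphorylate the insulin receptor, and 1420843_at read 6675, 6820 and 6926 units in KO and 4360.2, 5038 and 4778 units in WT. The KO values were all higher and close together, with a log2 change of 0.53 ± 0.099 (SE, adjusted p = 0.0880 in limma), and the adjusted p ran from 0.0603 to 0.591 over the 16 other settings. The other Ptprf probe sets were at 0.60 for 1420841_at and 0.042 for 1420842_at, both with overlapping groups. Grb14, an adaptor that inhibits the receptor kinase, read 5391, 4330.2 and 4856 units in KO and 5516, 5940.4 and 7327 units in WT, without overlap (-0.36 ± 0.13, adjusted p = 0.515).

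Below AKT (27 probe sets of 13 genes, median -0.018), the leading genes were lower in estimate. Gys2, the liver glycogen synthase that GSK3 phosphorylates, read 14922, 17946 and 15087 units in KO and 20678, 22925 and 19617 units in WT, without overlap (-0.40 ± 0.10, adjusted p = 0.236 in limma). Eif4ebp1, a repressor of translation that mTOR inactivates, read 3409, 3749 and 4776 units in KO and 5689.58, 5014 and 4834 units in WT by 1417562_at, without overlap (-0.39 ± 0.14, adjusted p = 0.486). Its brightest probe set, 1434976_x_at, was at -0.15 (adjusted p = 0.788) and the dim 1417563_at at -1.09 (adjusted p = 0.682), both with overlapping groups. The Ras and MAP kinase branch (6 probe sets of 3 genes, median 0.054) had Map2k2 at 0.40 by 1415974_at and Map2k1 at -0.19, with adjusted p-values of 0.636 and 0.761, and the other Map2k2 probe set at 0.30.

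Some transcripts that insulin is known to raise or lower in liver were measured as well. Of 21 probe sets of 9 genes, 2 rose past the adjusted threshold, beside 0.0751% of all probe sets, and 12 had an unadjusted p under 0.05, 10 higher and 2 lower, beside 7.94% of all. Their median was 0.37, over a list that mixes transcripts insulin raises with ones it lowers. This list was chosen with earlier results of these arrays known, so its count is not independent evidence. The fatty acid synthase gene Fasn read 22949, 16709 and 25934 units in KO and 6636, 9625 and 5843 units in WT, 2.98-fold higher (adjusted p = 0.0107 in limma). Acly, which makes cytosolic acetyl-CoA, rose by 0.81 ± 0.12 (SE) on the log2 scale by 1439459_x_at (adjusted p = 0.0313). Of its other 4 probe sets, none of which passed, 1451666_at was at 0.80 (adjusted p = 0.0620) and 1425326_at at 0.70 (adjusted p = 0.341), both without overlap, and the dim 1438389_x_at and 1439445_x_at were at -0.80 and -0.22 with overlap. G6pc, a glucose output gene that insulin lowers, chosen here after its values were seen, read 46088, 16763 and 35780 units in KO and 25606, 17319 and 9003 units in WT, with overlap (0.93 ± 0.39, adjusted p = 0.595). Thrsp was at 0.93 by 1422973_a_at and at 0.80 by 1424737_at. Pklr was at 0.55 by 1421258_a_at, 0.58 by 1421259_at and 0.46 by 1438711_at. All of these were without overlap, with adjusted p-values from 0.122 to 0.470 in limma. Srebf1 was at 0.37 with overlap (adjusted p = 0.634). Pck1 and Ppargc1a, like Igfbp1, had estimates below 0. Pck1 was at -0.15 by 1423439_at without overlap (adjusted p = 0.787 in limma) and at -1.05 by the dim 1455209_at with overlap. All probe sets of Ppargc1a were below 0, from -0.46 to -0.19, with overlap. Fasn passed under 13 of the 16 other settings and Acly 1439459_x_at under 9. Neither passed without WT replicate 1 (adjusted p = 0.0824 and 0.158 in limma) or without WT replicate 3 (0.0740 and 0.156). With all arrays kept, neither passed in limma without the intensity trend (adjusted p = 0.336 and 0.492). Whether these differences relate to the members was not tested.

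Markers of other cells were read beside the members. Summed stellate cell markers ran from 20480 to 26480 units in KO and from 23870 to 32970 units in WT, with 6 of 13 probe sets above background on all arrays. Kupffer cell and macrophage markers ran from 19170 to 29470 units in KO and from 22620 to 31030 units in WT (8 of 11), and endothelial markers from 18260 to 20330 units in KO and from 18430 to 19650 units in WT (9 of 12). The ranges overlapped in each, as they did for cholangiocyte (0 of 7), lymphocyte and neutrophil (1 of 6), adipocyte (2 of 7), skeletal muscle (1 of 7) and pancreas markers (2 of 8). None of these 71 marker probe sets passed the adjusted threshold (limma), and 6 of them, or 8.45%, had an unadjusted p under 0.05, beside 7.94% of all probe sets. Lower in KO by that measure were single probe sets of Col3a1, Reln and Acta2 of stellate cells and of Fabp4 of adipocytes, and higher were those of Cd79a of lymphocytes and Gcg of the pancreas. Of these 6, those of Col3a1 and Reln were above background on all arrays. Estimates were above 0 in 3 of 13 stellate cell, 3 of 11 Kupffer cell and macrophage and 4 of 12 endothelial probe sets. For adipocyte and skeletal muscle markers the counts were 2 of 7 and 1 of 7. They were 4 of 7 for cholangiocyte, 4 of 6 for lymphocyte and neutrophil and 5 of 8 for pancreas markers. Among the 18 hepatocyte marker probe sets, 15 were above 0. The part of these markers in the member values was not tested.

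**Figure D4:**
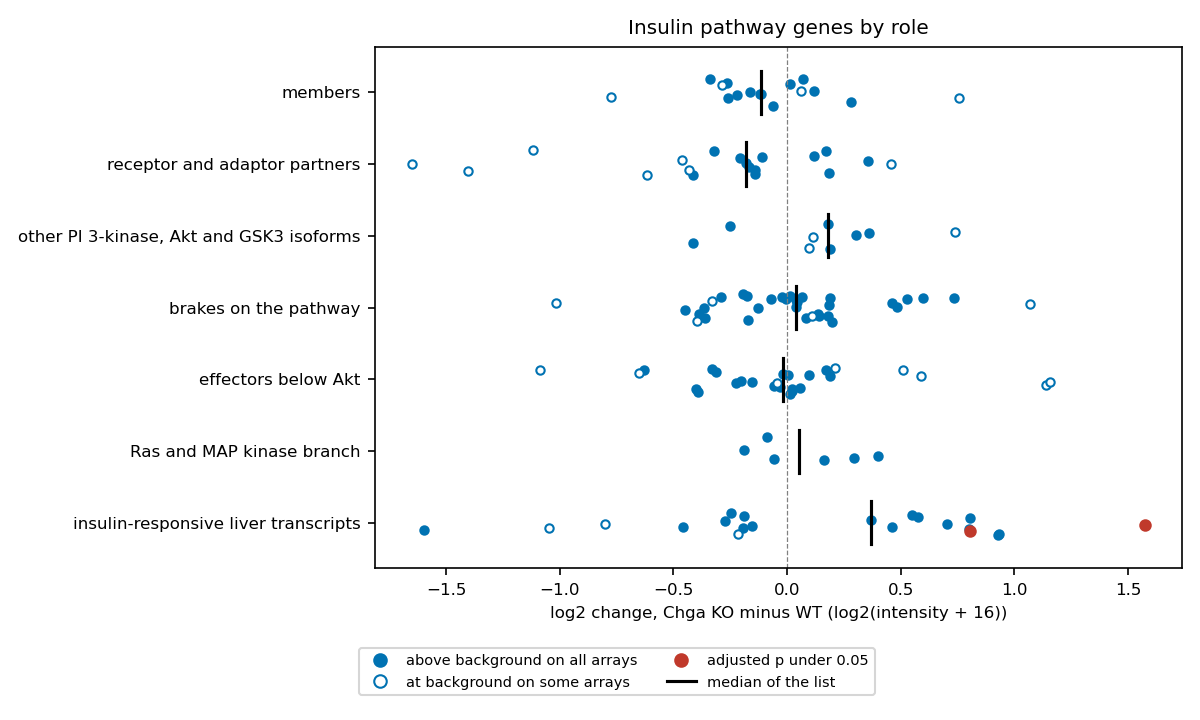
Log2 change (KO minus WT) of the probe sets of the members and of 6 lists by role, filled where above background on all 6 arrays, open elsewhere, red where the adjusted p was under 0.05, with a black line at each median. The medians of the members and of the 5 pathway lists lie between -0.18 and 0.18, and that of the insulin-responsive transcripts at 0.37.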

How the data were processed

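The submitters' processing notes name GCOS 1.2, the Affymetrix array software, and the authors deposited a linear probe set intensity for each array. The mean after trimming 2% at each end lay between 2501.32 and 2501.42, so arrays were on a common scale; the scaling rule and detection calls are not given in the sources used here. Of 22690 probe sets, 64 controls were left out, and 20380 of the rest had 1 gene, 691 several and 1555 none. No symbol changed when updated through RefSeq. Values were tested as log2(intensity + 16), which understates changes of dim probe sets, with limma 3.58.1 in R 4.3.3 (lmFit, eBayes with an intensity trend, no covariate), two-sided, with Benjamini-Hochberg over all 22626 probe sets and no filter. Standard errors and intervals are those of the fit. With 3 arrays against 3, an exact permutation test of 1 value cannot go below p = 0.1. The procedure was tested on simulated data. Pathway genes named are those past the threshold, or else the 2 with the lowest p in a list among probe sets above background on at least 3 arrays. In the insulin-responsive list, the other measured genes are named as well, outside this rule. Members, lists and tests were chosen with earlier results of these data known. Same-numbered arrays of the 2 groups did not deviate together (correlations from -0.065 to -0.059 across probe sets), so the numbers were not taken as pairs. Alternatives were other pseudocounts, normalizations, filters, weights, a replicate block and leaving out each array.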

Additional observations from a re-analysis of the deposited data

How the results depend on the processing

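Across 16 other settings of the fit, 0 member probe sets passed the adjusted threshold (limma), including the 6 settings that left out 1 array, and at an unadjusted p under 0.05 there was 1 in 1 setting and 0 in the others. Of 249 member estimates under those settings, 15 turned in sign, 14 of them with an array left out and 6 of these without WT replicate 1. Only the array weights turned a sign with all arrays kept, putting Irs2 at -0.036. With 1 array left out, estimates ran from -0.30 to 1.29 for Insr 1421380_at, from -0.31 to 0.066 for Irs1, from -0.41 to 0.45 for Irs2, and from -0.089 to 0.29, -0.27 to 0.23 and -0.40 to 0.0002 for Pik3r1 1425514_at, 1425515_at and 1451737_at. They ran from -0.30 to 0.0052 for Pik3ca 1460326_at, -0.070 to 0.21 for Pdpk1 1416501_at, -0.62 to 0.11 for Akt1 1425711_a_at and -0.14 to 0.10 for Gsk3b. Averaging a gene's probe sets gave -0.0024 for Akt1 and -0.069 for Pik3r1, against 0.28 and 0.12 by the probe set with the highest mean signal. The cause of these turns was not tested. The count over all probe sets was 24 with a pseudocount 16 times as large, 70 in the upper 40% by mean, where fewer were tested, and 0 without the intensity trend, and it ran from 14 to 40 with 1 array left out. The split was 26 higher and 25 lower in the upper 60%, and 38 and 32 in the upper 40%, where 17 and 25 passed with no filter. Over the 116 probe sets of all 6 lists, the insulin-responsive transcripts included, the count of 2 was 1 with the larger pseudocount, 0 without the trend, 1 with the replicate block and 3 in the upper 60% and in the upper 40%, and ran from 0 to 3 with 1 array left out. The replicate block, which rests on numbers alone, gave 30 calls over all probe sets and 0 among members, and 0 of 3 KO arrays correlated best with the WT array of its own number. By the highest control value, 12 of the 16 members were above background on all arrays, and by the median control 15, against 12 by the main reference. Signal near background limits Insr, Irs2 and the second Akt1 probe set.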
